A study of Mus musculus with 75 samples.

Results

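The CC chemokines examined here were Ccl2, Ccl3, Ccl4, Ccl5, Ccl7, Ccl11, Ccl19 and Ccl20, 8 genes chosen by symbol out of 21051 symbols in the deposited table of untreated mice and mice at 2 h, and out of 21076 symbols in the table of mice at 24 h. All 8 were present in both tables. Their RNA was measured by Smart-seq2, a low-input RNA-seq method, in 75 libraries of cells that the labels call EGC (enteric glial cells, the glia of the gut wall). The mice, of both sexes and given as adult for the untreated set, carried a transgenic reporter of the fluorescent protein eGFP. How the cells were isolated, and whether animals were pooled, is not given in the sources used here.

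Each library came from one gut region and one layer, the myenteric plexus between the muscle layers or the submucosal plexus nearer to the mucosa. Untreated reporter mice gave the myenteric and the submucosal plexus of the small intestine (n = 6 each) and of the colon (n = 5 each). A second set of reporter mice gave the myenteric plexus 2 h after one intraperitoneal injection of LPS (lipopolysaccharide of E. coli O111:B4, 2 mg/kg) or of PBS (phosphate-buffered saline), with 4 libraries per region and treatment. The last set, 24 h after the same injections, compared Gpr37WT mice, here called wild type, with Gpr37-/- mice, here called knockout, and both carried the reporter. It held 6 PBS and 4 LPS libraries of wild-type small intestine, 4 PBS and 5 LPS libraries of wild-type colon, 4 PBS and 5 LPS libraries of knockout small intestine, and 5 PBS and 4 LPS libraries from knockout colon, all of the myenteric plexus. Gpr37 encodes a G protein-coupled receptor found in glia, and the title of the series names its role in reactive gliosis and dysmotility after inflammation as the question.

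Chemokines are small secreted proteins that guide leukocytes along their gradients through receptors with names such as Ccr2 or Ccr7. CC chemokines are named for a pair of adjacent cysteines. In the gut wall, bacterial endotoxin is known to induce several of them through Toll-like receptor signalling and the transcription factor family NF-kB, in macrophages, fibroblasts, epithelium and glia. Ccl2 and Ccl7 attract monocytes through Ccr2. Ccl3 and Ccl4 are inflammatory chemokines made by macrophages among other cells, and Ccl5 attracts T cells among others. Ccl11 attracts eosinophils through Ccr3, Ccl19 guides dendritic cells and naive T cells through Ccr7, and Ccl20 is the ligand of Ccr6.

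The libraries held from 1990744 to 33283346 counts, so that 3 counts, the floor used for a gene at 0, came to between 0.0932 and 1.46 CPM. CPM stands for counts relative to the TMM-scaled library size. All 8 markers of glia had counts in every library, except in the wild-type colon after LPS, where 7 did. Markers of other cells were also present. In the colon 2 h after LPS, glial markers summed to 2924 to 8406 CPM, smooth muscle markers to 17250 to 52165 and fibroblast markers to 4475 to 10920. In the small intestine these sums were 4466 to 8929, 1155 to 16685 and 1025 to 4933 CPM. The part of these other cells in the chemokine levels at 2 h was not tested. The targeted gene checked the labels of the 24 h set: 17 of the 18 libraries labelled knockout held 3 or fewer Gpr37 counts. So did 4 of the 19 labelled wild type, all after LPS (mouse 3 in both regions, mouse 5 and mouse 8 in the colon). Mouse 8 held 100 Gpr37 counts in its small-intestinal LPS library, while the libraries of mice 3 and 5 are called wild type by their labels alone. Leaving out any 1 of the 4 labelled wild type with 3 or fewer counts changed no count of called members among the 8 given below. Calls of other pathway genes that it ended are named with them. In such bulk libraries, fewer cells of a type and less RNA per cell cannot be told apart. Mouse numbers are given for the 24 h set alone, where most mice gave both regions. For the other sets the labels give a sex and a number per library but no mouse, so male and female libraries come from separate animals, as do LPS and PBS ones. Nothing says so of libraries of 1 sex in a group, and the spread between them may be technical.

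Of the 8 genes, 6 lie in 2 groups on chromosome 11 of the mouse genome (GRCm38, GENCODE M21). Ccl2, Ccl7 and Ccl11 span chr11:82035571-82062955 (27.4 kb), and Ccl3, Ccl4 and Ccl5 span chr11:83525778-83664683 (139 kb). Ccl19 lies at chr4:42754525-42756577 and Ccl20 at chr1:83116766-83119167. The longest exact stretch that a transcript of one of these genes shares with any other CC ligand of the table was 23 bases, between Ccl2 and Ccl7. The 250 bases before the start site are shown for a gene that rose within 2 h (Ccl3) and for the gene that was at 0 in most libraries (Ccl20), 5′ to 3′ on the strand of the gene, from RefSeq (GRCm38.p6). They lie at chr11:83649379-83649628 on the minus strand and at chr1:83116516-83116765 on the plus strand. Capitals mark matches to the NF-kB motif GGGRNNNYCC, searched on both strands, where R is A or G, Y is C or T and N is any base.
Ccl3: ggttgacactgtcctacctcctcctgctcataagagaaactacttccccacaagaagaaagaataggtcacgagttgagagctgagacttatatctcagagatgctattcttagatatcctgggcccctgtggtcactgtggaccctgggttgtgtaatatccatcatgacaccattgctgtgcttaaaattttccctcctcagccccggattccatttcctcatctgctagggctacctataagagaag
Ccl20: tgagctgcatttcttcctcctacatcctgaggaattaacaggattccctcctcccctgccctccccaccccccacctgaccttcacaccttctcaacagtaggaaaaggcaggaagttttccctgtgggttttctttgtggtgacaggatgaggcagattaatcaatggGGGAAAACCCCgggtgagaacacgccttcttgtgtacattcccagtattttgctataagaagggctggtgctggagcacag
Ccl20 held 2 overlapping matches, 1 per strand, between 81 and 71 bases before the start. Ccl3 held none in this window, and 13.8% of 32851 windows of the same length held at least 1. RefSeq promoter sequences were matched for 3 of the 8 genes, these and Ccl19. The window of Ccl19, not shown, held 1 match, between 250 and 241 bases before the start.

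At 2 h, LPS raised 4 chemokines in the myenteric plexus of both regions, namely Ccl2, Ccl3, Ccl4 and Ccl7. These were 4 of the 6 members that passed the filter on low counts, whereas 1.08% of 13107 genes tested were called higher for the small intestine and 0.74% for the colon (edgeR quasi-likelihood test, Benjamini-Hochberg adjusted p under 0.05 over all genes). Ccl5 and Ccl11 were tested and not called, and Ccl19 and Ccl20 fell under the filter.

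Ccl2 rose in both regions. The 4 PBS libraries of the small intestine held 2.87, 21.9, 17.8 and 29.0 CPM, and the 4 LPS libraries held 4243, 5529, 5676 and 6234 CPM. In the colon the PBS libraries held 0, 79.3, 4.00 and 35.3 CPM and the LPS libraries 3994, 3737, 5479 and 6384 CPM. The lowest LPS library thus lay far above the highest PBS library in either region, while 3.44% of all genes tested for the small intestine and 2.25% for the colon were higher after LPS without overlap. The log2 fold change was 8.24 ± 1.18 (SE) for the small intestine and 7.37 ± 1.14 for the colon (edgeR quasi-likelihood test, Benjamini-Hochberg adjusted p = 0.000725 and 0.00261).

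Ccl7, the other monocyte attractant, rose in both regions as well. The small intestine held 5.29, 5.84, 15.4 and 14.3 CPM after PBS and 541, 906, 339 and 458 CPM after LPS. The colon held 0.698, 0, 9.65 and 16.3 CPM after PBS and 595, 458, 1078 and 739.6 CPM after LPS. No LPS library fell into the range of the PBS libraries. The log2 fold changes were 5.74 ± 0.86 and 6.73 ± 0.90 (edgeR quasi-likelihood test, Benjamini-Hochberg adjusted p = 0.000991 and 0.000742).

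Ccl3 and Ccl4 rose as well, with 1 library apart from the rest. For Ccl3 the small intestine held 3.75, 4.87, 6.41 and 4.78 CPM after PBS and 582, 38.7, 517 and 341 CPM after LPS, and the colon held 0, 0, 1.33 and 2.06 CPM after PBS and 107, 190.5, 158 and 139 CPM after LPS. For Ccl4 the small intestine held 9.70, 0, 15.6 and 8.61 CPM after PBS and 1511, 121, 1453 and 1268 CPM after LPS, and the colon held 0, 6.77, 1.33 and 4.36 CPM and 203, 339, 496 and 250.1 CPM. Groups did not overlap for either gene, but the second LPS library of the small intestine lay far under the other 3 in both. Ccl3 rose by 6.21 ± 0.79 on the log2 scale for the small intestine and 7.37 ± 0.89 for the colon (edgeR quasi-likelihood test, Benjamini-Hochberg adjusted p = 0.000261 and 0.000307). Ccl4 rose by 6.94 ± 1.02 and 6.71 ± 1.04 (edgeR quasi-likelihood test, Benjamini-Hochberg adjusted p = 0.000939 and 0.00272).

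**Figure D1:**
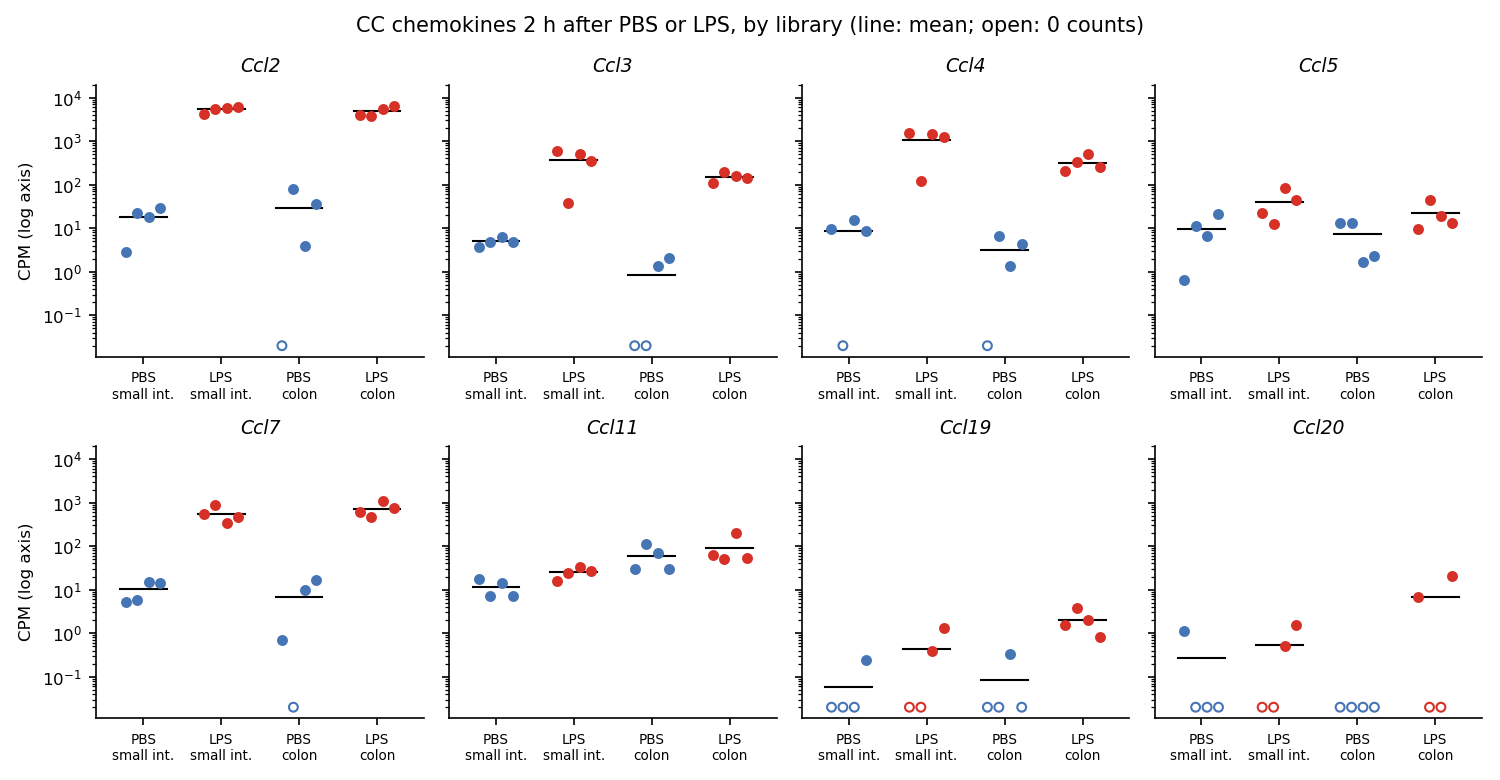
Level of each CC chemokine in every library 2 h after PBS (blue) or LPS (red), in CPM on a log axis, for the small intestine (small int.) and the colon. Points are libraries (n = 4 per group), lines are means and open points on the bottom line are libraries with 0 counts. Ccl2, Ccl3, Ccl4 and Ccl7 separate LPS from PBS in both regions, with Ccl2 after LPS between 3737 and 6384 CPM.

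That second small-intestinal LPS library also differed in markers of macrophages, cells that are known for high Ccl3 and Ccl4. The 10 macrophage markers summed to 402 CPM there and to 1397, 1722 and 2181 CPM in the other 3, of which 9 markers had counts in all 4 libraries and none was at 0 throughout. Its Ccl2 (5529 CPM) lay within the range of the others and its Ccl7 (906 CPM) above it. In the PBS libraries of the small intestine the same markers summed to 509.9 to 2889 CPM, while Ccl3 held 3.75 to 6.41 CPM there. The colon gave marker sums of 429.6 to 3074 CPM after PBS and 393 to 1035 CPM after LPS. Without that library Ccl3 and Ccl4 stayed called in the small intestine, with log2 differences of 6.59 and 7.32. The same library was also lowest in its group for dendritic cell markers (1.00 CPM against 26.7 to 53.9) and endothelial markers (18.3 against 99.0 to 174). It was highest for markers of mesothelium (1551 against 56.1 to 467 CPM) and smooth muscle (16685 against 1155 to 9425 CPM). The part of these cells in the Ccl3 and Ccl4 levels was not tested.

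**Figure D2:**
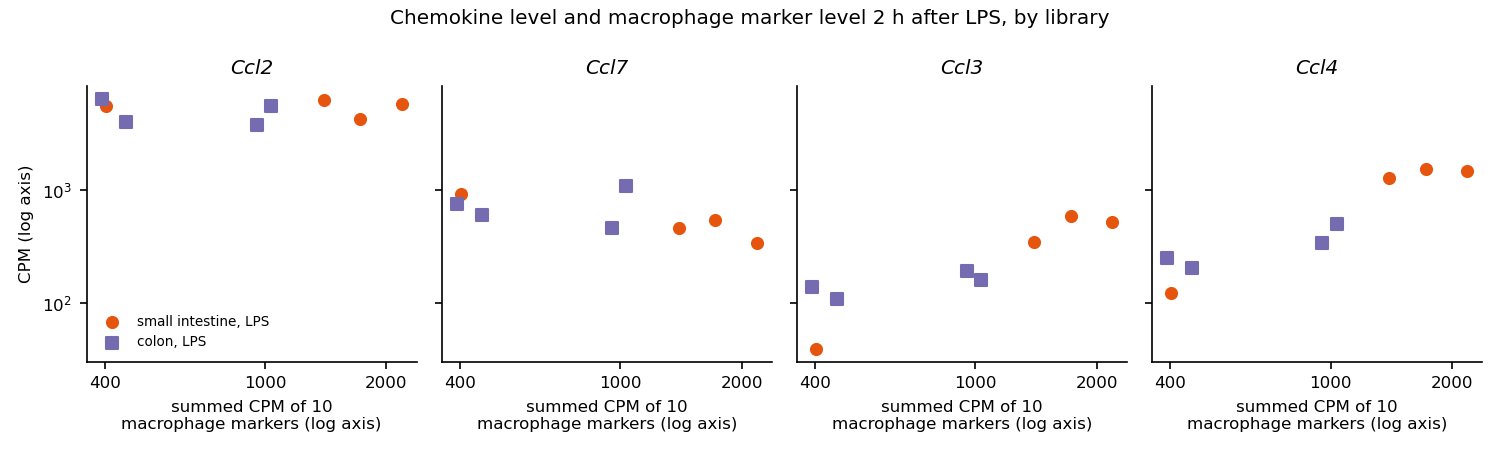
CPM of 4 chemokines against the summed CPM of 10 macrophage markers in each LPS library at 2 h (both log axes), for the small intestine (circles, n = 4) and the colon (squares, n = 4). The small-intestinal library at 402 CPM of marker sum is the lowest of that region for Ccl3 and Ccl4 (38.7 and 121 CPM) and not for Ccl2 or Ccl7.

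Ccl5 was low at 2 h. It held 0.661, 11.2, 6.61 and 20.9 CPM after PBS and 21.9, 12.4, 81.9 and 44.9 CPM after LPS in the small intestine, and 13.3, 12.9, 1.66 and 2.29 CPM after PBS and 9.79, 44.8, 19.3 and 13.3 CPM after LPS in the colon. The groups overlapped in both regions, and the log2 fold changes of 2.03 ± 0.94 and 1.53 ± 0.93 were not called (edgeR quasi-likelihood test, Benjamini-Hochberg adjusted p = 0.924 and 0.869). For the eosinophil attractant Ccl11 the ranges were 7.29 to 17.4 CPM after PBS and 15.9 to 32.6 CPM after LPS in the small intestine, and 29.1 to 110.4 and 50.6 to 206 CPM in the colon. Its groups overlapped as well. Its log2 fold changes of 1.10 ± 0.55 and 0.64 ± 0.54 were not called either (edgeR quasi-likelihood test, Benjamini-Hochberg adjusted p = 1 and 0.991).

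Ccl19 and Ccl20 were close to the floor. Ccl19 was detected in 4 of 4 colon libraries after LPS, with 7, 19, 5 and 3 counts, and in 1 of 4 after PBS, with 1 count. The pooled ratio was 31.9-fold, with an exact 95% interval of 5.36 to 1299 that covers counting error alone. The small intestine gave 0, 0, 3 and 10 counts after LPS and 2 counts in 1 of 4 PBS libraries, a pooled ratio of 4.70-fold (exact interval 1.06 to 42.9). Ccl20 held 30 and 74 counts in 2 of the 4 LPS libraries of the colon and 0 in the other 2, against 0 in all 4 PBS libraries, which makes the LPS mean at least 7.98-fold higher when set against 3 counts per library. Since 2 LPS libraries were at 0 as well, the groups overlapped. The 6 epithelial markers summed to 81.0 and 167 CPM in the LPS libraries with Ccl20 counts and to 15.8 and 2.05 CPM in the other 2. In the 4 PBS libraries of the colon, all without Ccl20 counts, they summed to 1.16 to 162 CPM. The part of epithelium in the Ccl20 counts at 2 h was not tested. In the small intestine Ccl20 held at most 12 counts in any library.

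The response did not differ detectably between the regions. No member was called in the test of the difference between the 2 LPS effects, in which 0% of all genes were called (edgeR; 0 members at an unadjusted p under 0.05, and 0 by DESeq2). The colon effect minus the small-intestinal effect was -0.86 ± 1.24 (SE) for Ccl2, 1.15 ± 1.03 for Ccl3, -0.23 ± 1.25 for Ccl4 and 0.98 ± 1.02 for Ccl7, on the log2 scale. An interval of 2 standard errors on either side reaches past 2 log2 units for each of the 4.

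Compared per kilobase of exon, so that genes can be ranked, Ccl2 led after LPS in both regions. In the small intestine the means were 4763 ± 739 CPM per kb for Ccl2, 1649 ± 989.7 for Ccl4, 700.2 ± 305 for Ccl7 and 483 ± 317 for Ccl3 (SD, n = 4). The ranges of Ccl4, Ccl7 and Ccl3 overlapped, and Ccl2 stood clear of them. The colon gave 4304 ± 1101 for Ccl2, 896 ± 333 for Ccl7, 488 ± 196 for Ccl4 and 194 ± 45.6 for Ccl3, where Ccl7 and Ccl4 overlapped. Ccl5 and Ccl11 followed in the small intestine and Ccl11 and Ccl5 in the colon, with overlap between Ccl5 and Ccl3 and between Ccl5 and Ccl11 in the former. In the colon Ccl11 overlapped with Ccl3, while Ccl5 ran from 10.2 to 46.6 and Ccl11 from 46.7 to 190.3 CPM per kb. Ccl19 and Ccl20 came last, the latter overlapping with Ccl5 in the colon.

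Few other genes of the pathway were called at 2 h. None of the 9 other CC ligands tested and none of the 4 CC receptors tested was called in either region (edgeR). Ccl17, Ccl24 and Ccr7 in the small intestine and Ccl17 in the colon passed the filter through the LPS libraries alone. Without them the median log2 fold changes of ligands and receptors were 1.09 and 0.17 in the small intestine and 0.28 and -2.36 in the colon, beside -0.02 and -0.0022 over all genes. At an unadjusted p under 0.05 there were 1 ligand and 1 receptor in the small intestine and 2 and 2 in the colon, and DESeq2 called Ccl12, a further ligand of Ccr2, in both regions and the receptor Ccr1 in the colon. Of the 6 atypical receptors, which bind chemokines or chemerin without the usual G protein signalling, Ccrl2 rose in both regions and Ackr3 in the small intestine. Ccrl2 held 5.84 to 34.9 CPM after PBS and 196 to 357 CPM after LPS in the small intestine, and 19.3 to 30.8 and 171 to 269.5 CPM in the colon, with log2 differences of 3.85 ± 0.49 and 3.08 ± 0.47 (edgeR quasi-likelihood test, Benjamini-Hochberg adjusted p = 0.000258 and 0.00259). Ackr3 held 8.25 to 28.9 CPM after PBS and 74.4 to 141 CPM after LPS in the small intestine (2.25 ± 0.37; edgeR quasi-likelihood test, Benjamini-Hochberg adjusted p = 0.00259). In the colon 3 of the 6 atypical receptors had an unadjusted p under 0.05 with edgeR, and DESeq2 called Ackr3 there beside Ccrl2.

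At 24 h LPS raised Ccl2 and Ccl5 in both regions of both genotypes, and Ccl19 in wild-type small intestine. Out of the 7 members tested, 3 were called higher in wild-type small intestine, 2 in knockout small intestine, 2 in wild-type colon and 2 in knockout colon, beside 4.18%, 0.53%, 3.96% and 0.637% of all 14903 genes tested. None was called lower. The 2 h and 24 h tables were scaled apart, so values from the 2 times stand side by side without a test.

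Ccl2 in wild-type small intestine held 3.39 (lowest), 17.6 (median) and 64.0 (highest) CPM after PBS, and 1517, 2825, 1171 and 835 CPM after LPS in mice 3, 8, 16 and 13. Wild-type colon held 105, 24.8, 13.9 and 26.7 CPM after PBS and 1608, 1967, 909, 4132 and 593 CPM after LPS, the latter in mice 13, 16, 3, 5 and 8. No library of one treatment entered the range of the other in either region. On the log2 scale the fold changes were 5.99 ± 0.78 (SE) and 5.44 ± 0.90 (edgeR quasi-likelihood test, Benjamini-Hochberg adjusted p = 5.72e-06 and 0.000302).

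Ccl2 was called in knockouts as well. Knockout small intestine held 30.6, 58.4, 2.92 and 11.2 CPM after PBS and 412, 493, 478, 436 and 376 CPM after LPS, the latter in mice 11, 17, 10, 6 and 21. Knockout colon held 18.9, 60.0, 42.1, 7.58 and 39.6 CPM after PBS and 179, 478, 855 and 442 CPM after LPS, the latter in mice 11, 17, 2 and 21. The treatments did not overlap, and the log2 fold changes were 4.09 ± 0.84 and 3.86 ± 0.77 (edgeR quasi-likelihood test, Benjamini-Hochberg adjusted p = 0.0105 and 0.00941). Each call was lost when a certain library was left out. Without the PBS library of mouse 7 the small-intestinal value was 3.91 (edgeR, Benjamini-Hochberg adjusted p = 0.0555), and without the LPS library of mouse 2 the colon value was 3.44 (edgeR, Benjamini-Hochberg adjusted p = 0.0508). Among mice numbered 11 and above alone, a division of the mouse numbers chosen with earlier results of these data known, the values were 3.86 and 3.69 (edgeR, Benjamini-Hochberg adjusted p = 0.0863 and 0.118; range over all alternatives 5.72e-07 to 0.0863 and 4.31e-06 to 0.118). With the 2 colon groups fitted alone, neither Ccl2 nor Ccl5 was called (edgeR, Benjamini-Hochberg adjusted p = 0.0913 and 0.366). The small-intestinal call of Ccl2 was likewise lost with its 2 groups fitted alone (edgeR, Benjamini-Hochberg adjusted p = 0.0553).

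Ccl5, which was low at 2 h, was called in all 4 settings at 24 h. Wild-type small intestine held 2.83 (lowest), 5.60 (median) and 24.2 (highest) CPM after PBS and 2101, 2945, 1362 and 804 CPM after LPS (mice 3, 8, 16 and 13). Wild-type colon held 33.8, 5.22, 3.76 and 6.75 CPM after PBS and 2574, 1569.9, 2604, 1235 and 921 CPM after LPS (mice 13, 16, 3, 5 and 8). Every LPS library lay far above the highest PBS library of its region, which was that of mouse 14 in both. Of all genes, 6.2% for the small intestine and 4.35% for the colon were higher after LPS without overlap. The log2 fold changes were 7.73 ± 1.20 and 7.17 ± 1.39 (edgeR quasi-likelihood test, Benjamini-Hochberg adjusted p = 6.10e-05 and 0.0016).

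Ccl5 in knockouts ran over a wide range after LPS. Knockout small intestine held 2.28, 1.86, 0.311 and 3.70 CPM after PBS and 251, 770.4, 1956, 2111 and 289 CPM after LPS, the latter in mice 11, 17, 10, 6 and 21, with no overlap (3.09% of genes). Knockout colon held 3.37, 8.02, 10.6, 1.09 and 122 CPM after PBS in mice 12, 15, 1, 20 and 7, and 33.3, 844, 5161 and 372 CPM after LPS in mice 11, 17, 2 and 21. Here the groups overlapped, since the LPS library of mouse 11 lay under the PBS library of mouse 7. On the log2 scale the fold changes were 9.08 ± 1.52 and 5.79 ± 1.20 (edgeR quasi-likelihood test, Benjamini-Hochberg adjusted p = 0.00202 and 0.0118). The colon value rested on 2 libraries: without the LPS library of mouse 2 it was 3.85 and no longer called (edgeR, Benjamini-Hochberg adjusted p = 0.146), and without the PBS library of mouse 7 it was 8.14 (edgeR, Benjamini-Hochberg adjusted p = 0.000682). Mitochondrial genes took 16.6% and 12.2% of the counts in the LPS small-intestinal libraries of mice 10 and 6, the 2 highest for Ccl5, and 2.43 to 5.95% in the other 3. They took 17.9% in the LPS colon library of mouse 2 against 2.34 to 6.31% in the other 3 of its group. After PBS in the colon the share was 26.0% in mouse 7 and 16.9% in mouse 1, whose Ccl5 was at 10.6 CPM, and 3.11 to 5.08% in the other 3. In wild-type small intestine after LPS the share was 12.9% in mouse 3 and 16.9% in mouse 8, the 2 highest there for Ccl5 and for Ccl2 (1517 and 2825 CPM), and 4.57% and 2.53% in mice 16 and 13. The PBS library of mouse 9 held 19.0% there, with 8.65 CPM of Ccl5 and 10.6 CPM of Ccl2. Wild-type colon ran from 2.97 to 10.4% after PBS, highest in mouse 24, and from 4.88 to 14.2% after LPS. Knockout small intestine after PBS ran from 3.37 to 6.12%, with 4.24% in mouse 7. Apart from mouse 24, the mice with the higher shares named here, 1, 2, 3, 6, 7, 8, 9 and 10, come from those numbered 10 and below. Such mice were spread unevenly over the groups, with 0 of 4 after PBS and 3 of 5 after LPS in wild-type colon. The part of the mitochondrial share in the Ccl5 and Ccl2 levels was not tested.

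**Figure D3:**
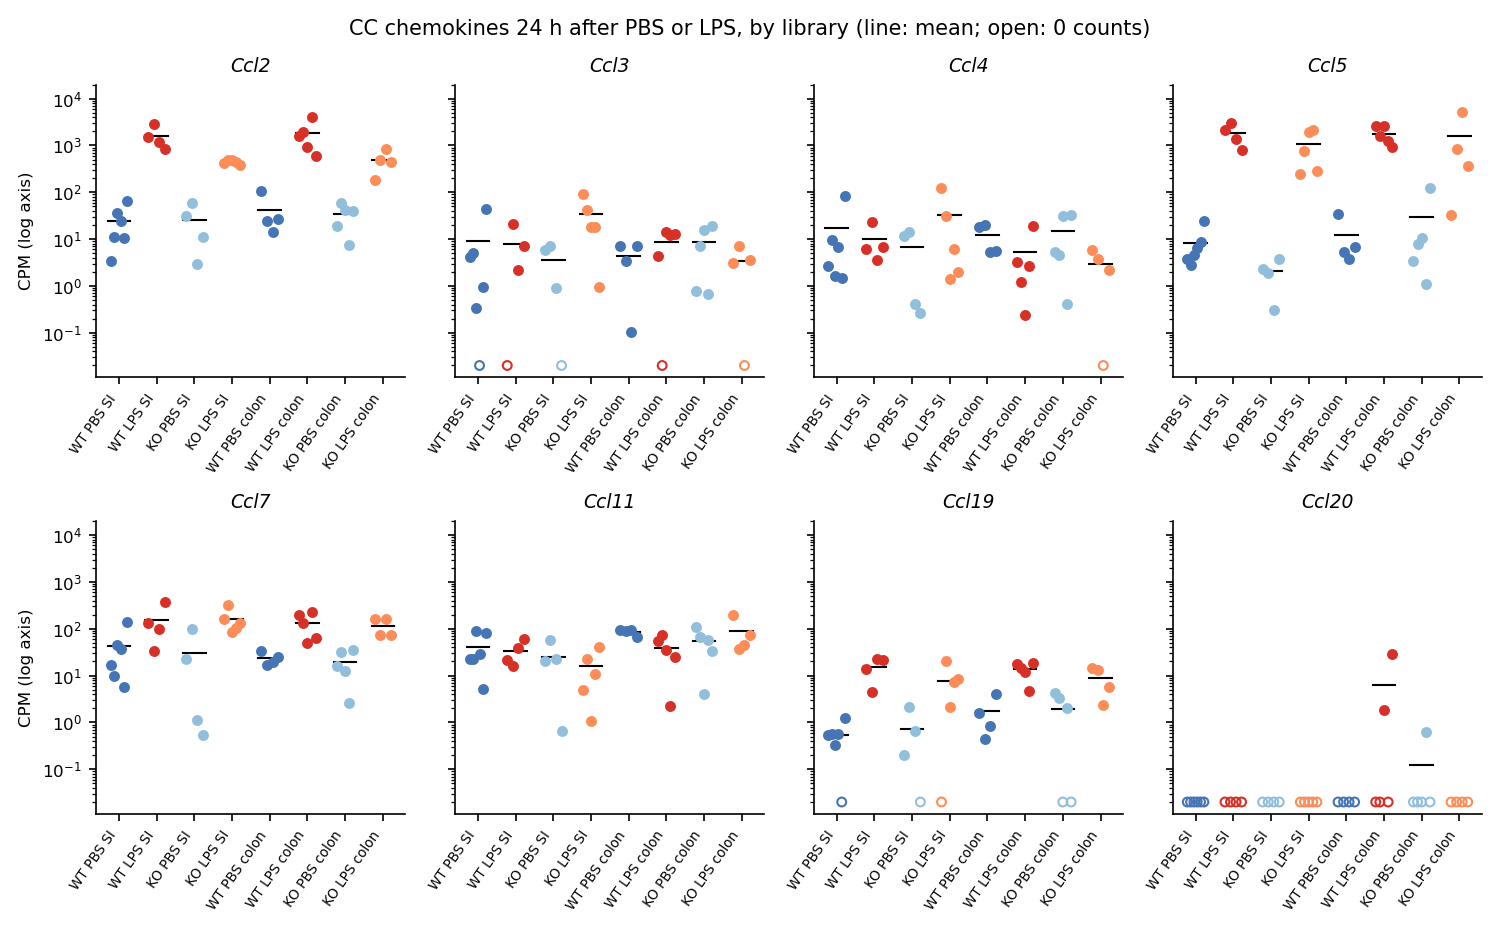
Level of each CC chemokine in every library 24 h after PBS (blue shades) or LPS (red shades), in CPM on a log axis, in wild-type (WT) and knockout (KO) mice, for the small intestine (SI) and the colon. Points are libraries (n = 4 to 6 per group), lines are means and open points on the bottom line are libraries with 0 counts. Ccl2 and Ccl5 sit apart from PBS in the 4 LPS groups except for 1 LPS library of Ccl5 in knockout colon, at 33.3 CPM.

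Markers of other cells were set beside the Ccl5 values. The 8 markers of T and NK cells, which are known to make Ccl5, summed to 0.512 to 19.5 CPM in wild-type small intestine and 0 to 51.6 CPM in wild-type colon after LPS, against 0 to 62.1 and 0.246 to 17.2 CPM after PBS. After LPS, 7 of the 8 markers had counts in at least 1 library of wild-type small intestine and 6 of the 8 in wild-type colon, and the others (Cd8a in the former, Klrb1c and Gzma in the latter) were at 0 throughout. In knockout small intestine the marker sum after LPS was 275 CPM in mouse 10 and 198 CPM in mouse 6, the 2 libraries highest for Ccl5, and 0.370 to 25.8 CPM in the other 3. The PBS colon library of mouse 7, highest for Ccl5 in its group, held 239 CPM of these markers against 5.71 CPM at most in the other 4, together with 3891 CPM of macrophage and 1540.2 CPM of B and plasma cell markers. In the LPS colon library of mouse 2, at 5161 CPM of Ccl5, the T and NK markers summed to 19.3 CPM. The sums of the 8 neutrophil markers were apart between treatments in the small intestine and overlapped in the colon. They summed to 0 to 3.60 CPM after PBS and 7.40 to 841 CPM after LPS in wild-type small intestine, and to 0.155 to 1.39 and 8.52 to 1833 CPM in knockout small intestine. In wild-type colon they summed to 0.0964 to 144 and 9.32 to 2313 CPM, and in knockout colon to 0.243 to 59.9 and 3.14 to 505 CPM. The part of these cells in the chemokine levels was not tested.

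Ccl7 had a positive log2 fold change in all 4 settings at 24 h and was called in none. Wild-type small intestine held 5.61 (lowest), 27.0 (median) and 143 (highest) CPM after PBS and 131, 32.7, 98.3 and 364 CPM after LPS, and wild-type colon 33.1, 17.1, 19.2 and 24.6 CPM and 199.8, 130.5, 48.5, 231 and 62.8 CPM. Knockout small intestine held 22.2, 97.3, 1.15 and 0.529 CPM after PBS and 159, 316, 86.9, 103 and 135 CPM after LPS, and knockout colon 16.1, 31.2, 12.4, 2.59 and 35.6 CPM and 164, 72.5, 158 and 72.9 CPM. The treatments overlapped in the small intestine and not in the colon, where 2.07% of genes in knockouts were higher without overlap. The log2 fold changes were 1.86 ± 0.86 in wild-type small intestine, 2.40 ± 0.98 in knockout small intestine, 2.52 ± 0.98 in wild-type colon and 2.58 ± 0.93 in knockout colon (edgeR quasi-likelihood test, Benjamini-Hochberg adjusted p = 0.198, 0.299, 0.101 and 0.236). With 1 library left out, the small-intestinal values ran from 1.07 to 2.81 in wild types and from 2.00 to 4.41 in knockouts, without a call. DESeq2 called wild-type colon (Wald test, Benjamini-Hochberg adjusted p = 0.0261), as did edgeR on the 2 groups alone (Benjamini-Hochberg adjusted p = 0.024; range over all alternatives 0.024 to 0.118).

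Ccl3 and Ccl4, which had risen at 2 h, were not called at 24 h. Over the 4 LPS groups Ccl3 ran from 0 to 90.6 CPM and over the 4 PBS groups from 0 to 44.9 CPM, and Ccl4 from 0 to 122 CPM and from 0.264 to 82.7 CPM. Within each treatment the highest library of both genes was a small-intestinal one with a high macrophage marker sum. After LPS it was knockout mouse 11, with 6278 CPM of those markers against 386 to 2027 CPM in its group, and it was also the highest there for glial markers (9926 CPM against 1569 to 2544). After PBS it was wild-type mouse 14, with 2542 CPM against 316 to 1565 CPM in its group. That library was also the highest of its group for markers of B and plasma cells (928 CPM), T and NK cells (62.1 CPM), dendritic cells (41.1 CPM), monocytes (439.5 CPM) and epithelium (926 CPM). The LPS colon library of wild-type mouse 3 held 3528 CPM of the markers with 14.4 CPM of Ccl3 and 0.236 CPM of Ccl4. The PBS colon library of knockout mouse 7 held 3891 CPM of macrophage markers and was the highest of its group for Ccl3 at 18.7 CPM and Ccl4 at 32.0 CPM. That of mouse 1 held 837 CPM with 15.7 and 31.3 CPM. The part of these cells in the Ccl3 and Ccl4 levels at 24 h was not tested. The log2 fold changes of Ccl3 were -0.25 ± 1.40 and 1.00 ± 1.49 in wild-type small intestine and colon, and 3.27 ± 1.63 and -1.31 ± 1.51 in those of knockouts (edgeR quasi-likelihood test, Benjamini-Hochberg adjusted p = 0.951, 0.731, 0.445 and 0.789). Those of Ccl4 were -0.80 ± 1.30, -1.19 ± 1.33, 2.29 ± 1.41 and -2.27 ± 1.42 in the same order (edgeR quasi-likelihood test, Benjamini-Hochberg adjusted p = 0.785, 0.621, 0.592 and 0.543).

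Ccl19, the Ccr7 ligand, was called in 1 of the 4 settings. Wild-type small intestine held 0 (lowest), 0.552 (median) and 1.25 (highest) CPM after PBS and 14.1, 4.47, 22.2 and 21.3 CPM after LPS, and wild-type colon 1.57, 0.454, 0.843 and 4.05 CPM and 17.8, 14.9, 12.0, 4.77 and 18.6 CPM. The treatments did not overlap in wild types. Knockout small intestine held 0.198, 2.11, 0.652 and 0 CPM after PBS and 0, 20.0, 2.14, 7.38 and 8.28 CPM after LPS, and knockout colon 4.15, 3.39, 0, 2.05 and 0 CPM and 14.8, 13.0, 2.41 and 5.78 CPM, with overlap in both. The log2 fold change was called in wild-type small intestine, at 4.81 ± 1.19 (edgeR quasi-likelihood test, Benjamini-Hochberg adjusted p = 0.00995), and not in wild-type colon (2.97 ± 1.25, 0.13), knockout small intestine (3.31 ± 1.28, 0.266) or knockout colon (2.23 ± 1.16, 0.438). Ccl19 passed the filter in this set of libraries and in neither of the others, with the LPS groups highest. DESeq2 also called it in wild-type colon and knockout small intestine (Wald test, Benjamini-Hochberg adjusted p = 0.0308 and 0.0458; range over all alternatives 0.0308 to 0.152 and 0.0458 to 0.368), and edgeR with a covariate for mice numbered 10 and below called it in wild-type colon (Benjamini-Hochberg adjusted p = 0.0365).

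Ccl11 and Ccl20 showed no call at 24 h. Ccl11 held 66.7 to 96.3 CPM after PBS and 2.27 to 73.4 CPM after LPS in wild-type colon, and its log2 fold changes lay between -1.19 ± 0.88 there and 0.71 ± 0.88 in knockout colon (edgeR quasi-likelihood test, Benjamini-Hochberg adjusted p = 0.427 and 0.806). Fibroblast markers summed to 15319.8 to 24138 CPM after PBS and 708 to 9204 CPM after LPS in wild-type colon, and to 2711 to 18101 and 1439 to 16544 CPM in knockout colon, and their part in the Ccl11 levels was not tested. Ccl20 had counts in 3 of the 37 libraries, 140 and 8 in the LPS colon libraries of wild-type mice 8 and 3 and 9 in the PBS colon library of knockout mouse 20. All 3 libraries also held much RNA of epithelium, a known source of Ccl20. The 6 epithelial markers summed to 4704, 3235 and 4676 CPM in them and to at most 926 CPM in the other 34. Ccl20 fell under the filter, and the part of epithelium in its counts was not tested.

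Knockouts were compared with wild types within each treatment and region. No member was called in any of these 4 comparisons, in which 0% of genes were called after PBS in the small intestine, 0% after PBS in the colon, 0.0134% after LPS in the small intestine and 0.429% after LPS in the colon (edgeR; 0 members by DESeq2 as well). At an unadjusted p under 0.05 there was 1 member, Ccl2, in each LPS comparison and 0 in the PBS comparisons. Ccl2 after LPS averaged 439 ± 47.9 CPM (SD, n = 5) in knockouts and 1587 ± 871 CPM (n = 4) in wild types in the small intestine, where the highest knockout library (493 CPM) lay under the lowest wild-type library (835 CPM). Of all genes, 1.6% were lower in knockouts without overlap in that comparison. In the colon the means were 489 ± 278 CPM (n = 4) and 1842 ± 1391 CPM (n = 5), with overlap. Of these wild-type colon libraries, those of mice 3, 5 and 8 held 2, 0 and 0 Gpr37 counts. That of mouse 5 was the highest for Ccl2, at 4132 CPM. Mouse 3 also held 0 Gpr37 counts in the small intestine after LPS.

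The knockout-to-wild-type log2 fold change of Ccl2 after LPS was -1.85 ± 0.72 (SE) for the small intestine and -1.91 ± 0.75 for the colon (edgeR quasi-likelihood test, Benjamini-Hochberg adjusted p = 0.501 and 0.207). After PBS it was 0.05 ± 0.69 and -0.33 ± 0.71 (edgeR quasi-likelihood test, Benjamini-Hochberg adjusted p = 1 and 1). The difference of the LPS effects, knockout minus wild type, was -1.91 ± 0.98 and -1.58 ± 1.03 for Ccl2 and was not called (edgeR quasi-likelihood test, Benjamini-Hochberg adjusted p = 1 and 0.527), as for all other members and 0% of all genes (0 members at an unadjusted p under 0.05 in either region, and 0 by DESeq2). These comparisons share their libraries with the LPS comparisons above. For Ccl5 the same difference was 1.35 ± 1.46 for the small intestine and -1.38 ± 1.46 for the colon.

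Regions did not differ by a call in the LPS effect at 24 h either. In wild types 0 members were called and 0 had an unadjusted p under 0.05, beside 0% of all genes called (edgeR; 0 by DESeq2). In knockouts 0 members were called, by edgeR or DESeq2, and 3 had an unadjusted p under 0.05. The colon effect minus the small-intestinal effect was -4.58 ± 2.21 for Ccl3, -4.56 ± 2.00 for Ccl4 and -3.29 ± 1.53 for Ccl5 (edgeR, Benjamini-Hochberg adjusted p = 1 for each). Over the alternatives the values ran from -4.88 to -2.37 for Ccl3, -4.83 to -2.28 for Ccl4 and -3.45 to -1.67 for Ccl5. With 1 library left out, that of Ccl5 ran from -5.23 to -0.98.

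Ranked per kilobase of exon, Ccl5 had the highest mean in all 4 LPS groups and Ccl2 the next, and the ranges of the 2 genes overlapped in all 4. In wild-type small intestine the means were 1878 ± 967 and 1395 ± 765 CPM per kb (SD, n = 4), followed by Ccl7 at 195 ± 180.0. In knockout small intestine they were 1120.2 ± 937, 386 ± 42.1 and 200.0 ± 115 (n = 5), where Ccl5 ran from 261 to 2199 and Ccl2 from 330.0 to 433. Wild-type colon had Ccl5 from 959 to 2712 and Ccl2 from 522 to 3631 CPM per kb. In knockout colon the mean of 1669.5 ± 2495 for Ccl5 (n = 4) rested on the library of mouse 2, with a range from 34.7 to 5376 against 157 to 752 for Ccl2. After PBS in wild-type small intestine the order was Ccl7, Ccl11, Ccl4 and Ccl2, from 53.6 ± 64.0 to 21.9 ± 19.7 CPM per kb (n = 6), and the ranges of neighbours overlapped throughout.

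**Figure D4:**
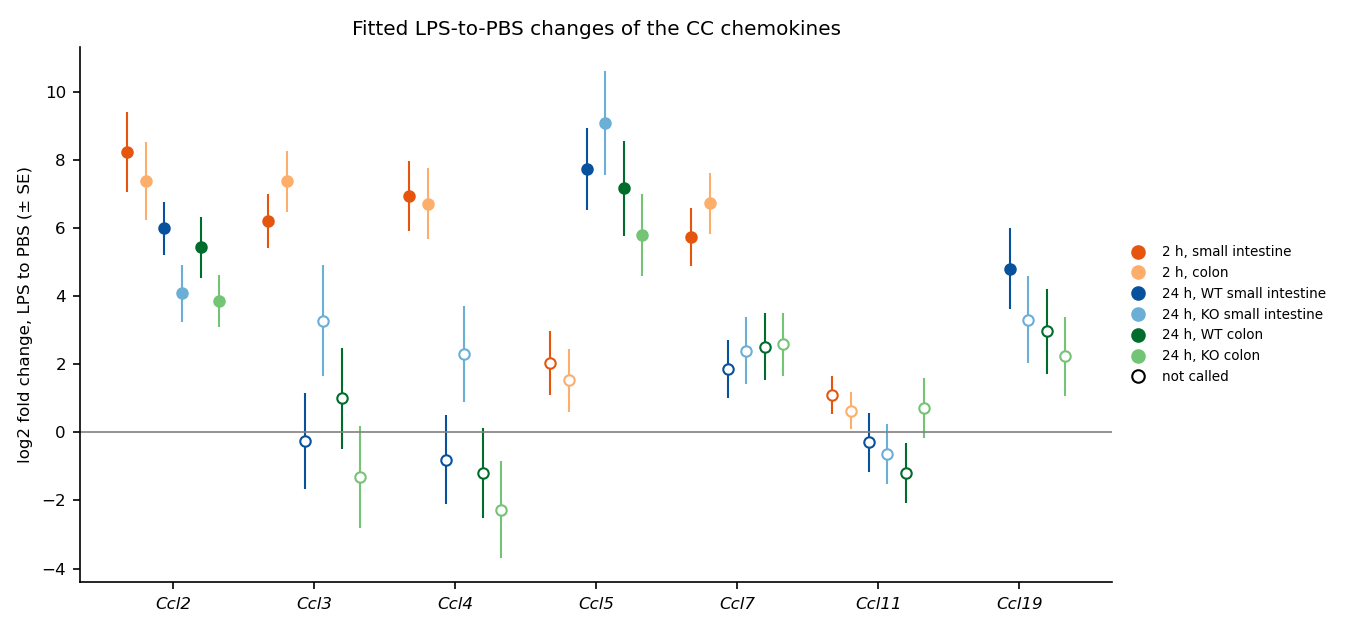
Fitted log2 fold change of LPS to PBS (points) with its standard error (bars) for 7 chemokines in 6 settings, 2 regions at 2 h and 2 regions in 2 genotypes at 24 h. Filled points were called (edgeR, Benjamini-Hochberg adjusted p under 0.05) and open points were not; Ccl19 was tested at 24 h alone. Ccl3 and Ccl4 are filled at 2 h, Ccl5 at 24 h and Ccl2 in all 6 settings.

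Over these 6 fold changes the genes most like each chemokine were found by the root mean square difference on the log2 scale, among 13071 genes tested at both times. The settings within a time share no library, and the measure is a description. For Ccl2 they were Cxcl2 (0.91), Ptx3 (1.13) and Fgr (1.25). For Ccl7 they were Rnd1 (0.54), Tnfaip3 (0.91) and Mmp13 (0.93). Ccl3 and Ccl4 were nearest to each other (1.15), then to Egr2 (1.77 and 1.96), with Arc next for Ccl3 (1.90) and Nppc for Ccl4 (2.01). Ccl5 had no close match: Saa3 (2.05), Lcn2 (2.19) and Cxcl9 (2.32) were nearest. For Ccl11 they were Galnt11, S1pr1 and Sh3bp4 (0.24, 0.24 and 0.31); the 6 log2 fold changes of Ccl11 itself ran from -1.19 to 1.10.

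Among other pathway genes at 24 h, wild types had calls and knockouts had none in LPS against PBS (edgeR). The difference of the LPS effects between genotypes was called for none of these 24 genes by edgeR in either region (0 at an unadjusted p under 0.05 in the small intestine; 4 ligands and 1 receptor in the colon, of which DESeq2 called 2 ligands, Ccl22 and Ccl28). In wild-type small intestine 1 of 11 other CC ligands tested rose, Ccl17, a ligand of Ccr4, which held 0 to 1.22 CPM after PBS and 4.23 to 30.0 CPM after LPS (5.91 ± 1.61; edgeR quasi-likelihood test, Benjamini-Hochberg adjusted p = 0.0209). That call was lost without the LPS library of mouse 3 (edgeR, Benjamini-Hochberg adjusted p = 0.0507), with the covariate for mice numbered 10 and below (Benjamini-Hochberg adjusted p = 0.0622) and in mice numbered 11 and above alone (4.26; Benjamini-Hochberg adjusted p = 0.145). In wild-type colon 2 of 11 rose, Ccl17 and Ccl22, another Ccr4 ligand. Ccl17 held 0.121, 0.227, 0 and 0 CPM after PBS and 17.5, 34.7, 126, 4.09 and 105 CPM after LPS, a pooled ratio of 1056 with an exact interval of 361 to 5128 (edgeR quasi-likelihood test, Benjamini-Hochberg adjusted p = 0.00939). Ccl22 was at 0 in all 4 PBS libraries and at 2.91, 11.7, 122, 0 and 18.1 CPM after LPS, with a mean at least 113-fold higher (edgeR quasi-likelihood test, Benjamini-Hochberg adjusted p = 0.0294). The Ccl19 receptor Ccr7 was the 1 of 7 CC receptors called there, at 3.64, 56.8, 535, 1.36 and 32.9 CPM after LPS against 1 count over the 4 PBS libraries, a pooled ratio of 6662 with an exact interval of 1195 to 263206 (edgeR quasi-likelihood test, Benjamini-Hochberg adjusted p = 0.0323). The colon library of mouse 3 was the highest for Ccl17, Ccl22 and Ccr7, and its markers of B and plasma cells summed to 2796 CPM, those of macrophages to 3528 CPM and those of epithelium to 3235 CPM. It is also one of the libraries labelled wild type with 3 or fewer Gpr37 counts. Without it Ccl22 averaged 8.20 CPM, at least 29.9-fold higher than after PBS, and was no longer called (edgeR, Benjamini-Hochberg adjusted p = 0.0678). Ccr7 then averaged 23.7 CPM, a pooled ratio of 1785 with an exact interval of 319 to 70628, and was not called either (edgeR, Benjamini-Hochberg adjusted p = 0.0799). Both calls were also lost without any 1 of the 4 PBS libraries (edgeR, Benjamini-Hochberg adjusted p = 0.0665 to 0.0824 for Ccl22 and 0.0772 to 0.0972 for Ccr7), as with the mouse-number covariate (Benjamini-Hochberg adjusted p = 0.0614 and 0.0631), and that of Ccl22 with the groups fitted alone (Benjamini-Hochberg adjusted p = 0.0753). Ccl17 averaged 40.2 CPM without mouse 3 and was called in all 9 fits that left out 1 library. The recomputation of these pathway genes was chosen after seeing the data. Ackr4, a scavenger of Ccl19, fell in wild-type colon, with 94.4 to 124 CPM after PBS and 1.05 to 33.8 CPM after LPS (-2.86 ± 0.84; edgeR quasi-likelihood test, Benjamini-Hochberg adjusted p = 0.0336). The call was lost in 7 of the 9 fits that left out 1 library, those without any 1 of the 4 PBS libraries or without the LPS library of mouse 3, 5 or 8 (edgeR, Benjamini-Hochberg adjusted p = 0.0526 to 0.0723). It was lost as well with the mouse-number covariate (edgeR, Benjamini-Hochberg adjusted p = 0.0775) and with the groups fitted alone (edgeR, Benjamini-Hochberg adjusted p = 0.102). Mice numbered 10 and below gave 0 of the 4 PBS and 3 of the 5 LPS libraries of wild-type colon. Fibroblast markers summed to 15319.8 to 24138 CPM after PBS and 708 to 9204 CPM after LPS in these libraries, and markers of interstitial cells of Cajal to 77.6 to 307 and 10.7 to 56.0 CPM. Their part in the Ackr4 levels was not tested. In wild types, 3 ligands, 1 receptor and 2 atypical receptors had an unadjusted p under 0.05 in the small intestine, where DESeq2 called Ccl17 and Ackr3. In wild-type colon there were 4, 2 and 3 of them, and DESeq2 called Ccl9, Ccl17, Ccl22, Ccr7, Ccr8, Ackr1 and Ackr4. In knockouts 0 of 11 ligands, 0 of 7 receptors and 0 of 6 atypical receptors were called in either region by edgeR. At an unadjusted p under 0.05 there were 3, 2 and 1 of them in the small intestine and 3, 0 and 1 in the colon, and DESeq2 called Ccl9, Ccl28 and Ccr1 in the former and Ccl17, Ccl28 and Ackr1 in the latter.

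In untreated mice 6 of the 8 members were called by edgeR between the plexuses and none of the 8 between the regions. Ccl3, Ccl5 and Ccl20 were higher in the submucosal plexus of both regions, Ccl4 in that of the colon, and Ccl7 and Ccl11 in that of the small intestine. These were 4 of 7 members tested in the colon, beside 10.7% of 14090 genes called higher, and 5 of 7 in the small intestine, beside 22.3% (edgeR). Ccl20 had passed the filter through the submucosal libraries alone, since it was at 0 in all 11 myenteric ones, and so had to differ. Without Ccl20 the counts were 3 of 6 in the colon and 4 of 6 in the small intestine. Ccl2 was not called, at 28.1 ± 14.4 CPM (SD, n = 6) in the myenteric and 38.6 ± 24.3 CPM (n = 6) in the submucosal plexus of the small intestine and 37.3 ± 35.6 and 40.2 ± 14.4 CPM (n = 5 each) in those of the colon (0.46 ± 0.65 and 0.11 ± 0.71; edgeR quasi-likelihood test, Benjamini-Hochberg adjusted p = 0.596 and 0.93).

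The submucosal libraries held much RNA of immune cells and less of glia. Markers of B and plasma cells summed to 14263 to 133114 CPM in the submucosal and 4.99 to 1097 CPM in the small-intestinal myenteric plexus, and to 741 to 45710.3 and 4.60 to 301 CPM in those of the colon. Macrophage markers summed to 3782 to 22673 against 242 to 3912 CPM and to 227 to 11441 against 181 to 975 CPM. T and NK markers summed to 412 to 1325 against 1.56 to 3.99 CPM and to 1.14 to 354 against 0.302 to 3.26 CPM, with 5 of 8 at 0 in every myenteric colon library (Cd3d, Cd3e, Cd3g, Trac and Klrb1c). The 8 glial markers summed to 547 to 2086 against 9226 to 14308 CPM and to 1153 to 5796 against 6321 to 13558 CPM. The part of those cells in the chemokine levels was not tested.

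Ccl5 was called between the plexuses in both regions. The small intestine held 0.222 (lowest), 5.37 (median) and 9.54 (highest) CPM in the myenteric and 135 (lowest), 254 (median) and 357 (highest) CPM in the submucosal plexus, and the colon held 12.6, 6.95, 0.328, 3.27 and 0.875 CPM and 189, 5.69, 77.3, 268 and 63.9 CPM. The groups were apart in the small intestine, as for 13.4% of genes, and overlapped in the colon through submucosal replicate 2, at 5.69 CPM. On the log2 scale the fold changes were 5.51 ± 0.85 and 4.70 ± 0.90 (edgeR quasi-likelihood test, Benjamini-Hochberg adjusted p = 3.16e-05 and 0.0013).

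Ccl3 was called between the plexuses in both regions and Ccl4 in the colon. Ccl3 held 0 (lowest), 6.80 (median) and 37.2 (highest) CPM in the myenteric and 4.02 (lowest), 58.4 (median) and 113 (highest) CPM in the submucosal plexus of the small intestine, and 0, 0, 2.52, 2.29 and 3.15 CPM and 49.5, 2.84, 28.8, 44.8 and 28.8 CPM in those of the colon. Its log2 fold changes were 2.35 ± 0.93 and 4.17 ± 1.13 (edgeR quasi-likelihood test, Benjamini-Hochberg adjusted p = 0.0455 and 0.0121). The small-intestinal call of Ccl3 was lost in 9 of the 12 fits that left out 1 library, those without submucosal replicate 2, 4, 5 or 6 or myenteric replicate 1, 2, 3, 5 or 6 (edgeR, Benjamini-Hochberg adjusted p = 0.0553 to 0.0992), with no filter on low counts (Benjamini-Hochberg adjusted p = 0.0535) and with the groups fitted alone (Benjamini-Hochberg adjusted p = 0.0609). Ccl4 held 3.85 to 61.4 CPM and 16.5 to 151 CPM in the small intestine, where it was not called (1.89 ± 0.87; edgeR quasi-likelihood test, Benjamini-Hochberg adjusted p = 0.0829), and was called without myenteric replicate 4 (edgeR, Benjamini-Hochberg adjusted p = 0.0232) and with the groups fitted alone (Benjamini-Hochberg adjusted p = 0.0311). In the colon it held 0 to 11.1 CPM and 0.190 to 75.9 CPM and was called (3.20 ± 1.01; edgeR quasi-likelihood test, Benjamini-Hochberg adjusted p = 0.0277), but not without myenteric replicate 1 or 2 or submucosal replicate 1 or 5 (edgeR, Benjamini-Hochberg adjusted p = 0.0503 to 0.0622). That call was lost as well with the replicate block (Benjamini-Hochberg adjusted p = 0.0856) and with the groups fitted alone (Benjamini-Hochberg adjusted p = 0.084; both edgeR).

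**Figure D5:**
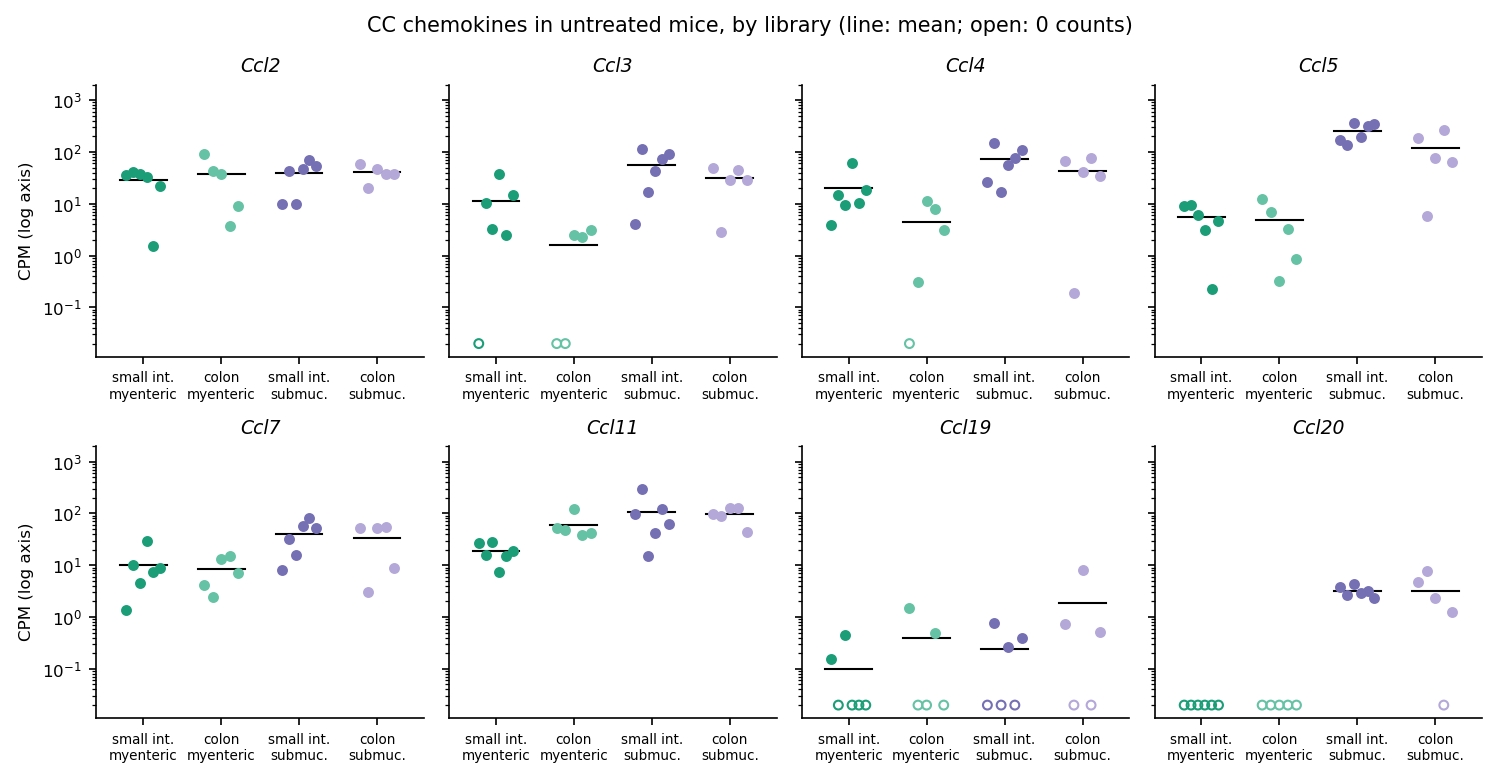
Level of each CC chemokine in every library of untreated mice, in CPM on a log axis, for the myenteric (green) and submucosal (violet) plexus of the small intestine (small int., n = 6 each) and the colon (n = 5 each). Points are libraries, lines are means and open points on the bottom line are libraries with 0 counts. Ccl2 overlaps between the plexuses in both regions, Ccl5 is higher in the submucosal groups, and Ccl20 is at 0 in all 11 myenteric libraries.

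Ccl7 averaged 10.1 ± 9.63 CPM in the myenteric and 40.7 ± 27.7 CPM in the submucosal plexus of the small intestine (SD, n = 6 each) and was called (2.03 ± 0.71; edgeR quasi-likelihood test, Benjamini-Hochberg adjusted p = 0.0255). That call was lost without myenteric replicate 1, 3 or 5 or submucosal replicate 5 (edgeR, Benjamini-Hochberg adjusted p = 0.0515 to 0.0725). In the colon the means were 8.36 ± 5.56 and 34.1 ± 25.8 CPM (n = 5 each) without a call (2.00 ± 0.78; edgeR quasi-likelihood test, Benjamini-Hochberg adjusted p = 0.0693), which appeared without submucosal replicate 2 (edgeR, Benjamini-Hochberg adjusted p = 0.0292) and with DESeq2 (Wald test, Benjamini-Hochberg adjusted p = 0.0227). Ccl11 held 7.32 (lowest), 17.3 (median) and 27.5 (highest) CPM in the myenteric and 15.1 (lowest), 80.9 (median) and 302 (highest) CPM in the submucosal plexus of the small intestine (2.52 ± 0.52; edgeR quasi-likelihood test, Benjamini-Hochberg adjusted p = 0.000569). In the colon it held 51.9, 47.4, 123, 38.7 and 42.3 CPM and 96.8, 90.8, 125, 128 and 44.6 CPM and was not called (0.67 ± 0.54; edgeR quasi-likelihood test, Benjamini-Hochberg adjusted p = 0.399). Ccl11 and Ccl7 overlapped between the plexuses in both regions.

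Ccl20 was measured at a few CPM in the submucosal plexus. The 6 small-intestinal libraries held 2.33 (lowest), 3.05 (median) and 4.30 (highest) CPM, or 12 to 22 counts, and the colon libraries 4.80, 7.59, 2.31, 0 and 1.27 CPM, or 0 to 40 counts. Replicate 5 of the colon was at 0 there, like the myenteric libraries. With 0 counts in every myenteric library, it was at least 5.35-fold higher in the small intestine and at least 5.51-fold higher in the colon, set against 3 counts per library. Epithelial markers summed to 948 to 4011 and 1179.8 to 4488 CPM in these submucosal groups and to 4.89 to 151 and 3.92 to 1339 CPM in the myenteric ones, and their part in the Ccl20 counts was not tested. Ccl19 fell under the filter, with at most 7 counts in any untreated library except 57 in submucosal colon replicate 4 (8.24 CPM).

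One submucosal colon library stood apart from the other 4. In this library, replicate 2, the B and plasma cell markers summed to 741 CPM, the macrophage markers to 227 CPM and the glial markers to 5796 CPM, against 19136 to 45710.3, 6698 to 11441 and 1153 to 4393 CPM in the others. It was the lowest of the 5 for Ccl2 (19.7 CPM), Ccl3 (2.84 CPM), Ccl4 (0.190 CPM), Ccl5 (5.69 CPM) and Ccl7 (3.03 CPM), and the highest for Ccl20 (7.59 CPM). Without it the members called in the colon were 5, Ccl7 joining Ccl3, Ccl4, Ccl5 and Ccl20.

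Between the regions no member was called in either plexus. In the myenteric plexus 0 of 7 were called beside 3.19% of all genes (edgeR; 3 at an unadjusted p under 0.05, and 2 called by DESeq2). Ccl11 came closest. Its 38.7 to 123 CPM in the colon lay above the 7.32 to 27.5 CPM of the small intestine without overlap, as 1.18% of genes did, with a log2 difference of 1.70 ± 0.52 (edgeR quasi-likelihood test, Benjamini-Hochberg adjusted p = 0.0781). DESeq2 called it (Wald test, Benjamini-Hochberg adjusted p = 0.024), as did edgeR on the 2 groups alone (Benjamini-Hochberg adjusted p = 0.0294; range over all alternatives 0.024 to 0.139). In the same libraries fibroblast markers summed to 4214 to 15871 CPM in the colon and 1985 to 3675 CPM in the small intestine, and markers of interstitial cells of Cajal to 181 to 835 and 9.98 to 73.6 CPM. The part of these cells in the Ccl11 levels was not tested. The log2 fold changes of Ccl3 and Ccl4 were -2.72 ± 1.06 and -2.05 ± 0.95, without a call (edgeR quasi-likelihood test, Benjamini-Hochberg adjusted p = 0.177 and 0.278). DESeq2 called Ccl3 (Wald test, Benjamini-Hochberg adjusted p = 0.0493; range over all alternatives 0.0493 to 0.465).

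In the submucosal plexus 0 of 7 members were called between the regions beside 5.18% of all genes (edgeR; 0 at an unadjusted p under 0.05, and 0 by DESeq2). The test of whether the plexus difference depended on the region also called 0 members, beside 1.19% of all genes (edgeR; 1 at an unadjusted p under 0.05, Ccl11, and 0 by DESeq2). For Ccl11 the colon difference minus the small-intestinal difference was -1.84 ± 0.74 (edgeR quasi-likelihood test, Benjamini-Hochberg adjusted p = 0.222).

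CC receptors and other CC ligands also differed by plexus. Of 11 CC receptors 8 passed the filter, and all 8 were called higher in the submucosal plexus of both regions (edgeR). Of these, 5 passed through the submucosal libraries alone and so had to differ, namely Ccr3, Ccr6, Ccr7, Ccr9 and Ccr10. Without them the count was 3 of 3 in either region, beside 22.3% of all genes called higher for the small intestine and 10.7% for the colon, with median log2 fold changes of 3.27 and 4.88 beside 0.06 and -0.01 over all genes. Ccr1 and Ccr2 stayed called in every fit that left out 1 library. The Ccl20 receptor Ccr6 averaged 38.2 ± 20.4 CPM in the submucosal small intestine against 1 count over the 6 myenteric libraries, and Ccr9, the receptor of Ccl25, averaged 79.2 ± 56.4 against 0.214 ± 0.394 CPM. Ccr7 was at 0 in the myenteric small intestine and at least 111-fold higher in the submucosal plexus. In the colon Ccr1, a receptor of Ccl3 and Ccl5, averaged 106 ± 71.4 CPM in the submucosal and 1.83 ± 3.47 CPM in the myenteric plexus (5.80 ± 1.02; edgeR quasi-likelihood test, Benjamini-Hochberg adjusted p = 0.000649).

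Of 9 other CC ligands tested, 6 were higher and 1 lower in the submucosal small intestine, and 5 higher and 1 lower in the submucosal colon (edgeR). Ccl22 and Ccl28 passed the filter through the submucosal libraries alone and so had to differ. The counts without such genes were added after seeing the data. Without them 4 of 7 were higher and 1 lower in the small intestine, and 3 of 7 higher and 1 lower in the colon, beside the 22.3% and 10.7% of all genes called higher, with median log2 fold changes of 3.67 and 1.19. The colon count includes Ccl6 (2.45 ± 0.83; edgeR quasi-likelihood test, Benjamini-Hochberg adjusted p = 0.0383), whose call was lost with the groups fitted alone (edgeR, Benjamini-Hochberg adjusted p = 0.109) and in 7 of the 10 fits that left out 1 library, those without myenteric replicate 1, 2, 3 or 4 or submucosal replicate 1, 4 or 5 (edgeR, Benjamini-Hochberg adjusted p = 0.0642 to 0.086). Without myenteric replicate 5 the log2 fold change of Ccl6 was 4.73 (edgeR, Benjamini-Hochberg adjusted p = 5.92e-05). Ccl25, which guides T cells to the small intestine, averaged 183 ± 188 against 11.3 ± 3.74 CPM in the small intestine (4.01 ± 0.49; edgeR quasi-likelihood test, Benjamini-Hochberg adjusted p = 2.63e-06), and Ccl9 averaged 160.0 ± 84.5 against 6.61 ± 6.43 CPM (4.64 ± 0.82; edgeR quasi-likelihood test, Benjamini-Hochberg adjusted p = 0.000136). Ccl8, a relative of Ccl2 and Ccl7, was in the colon at 225 ± 173 against 9.54 ± 13.4 CPM (4.55 ± 0.97; edgeR quasi-likelihood test, Benjamini-Hochberg adjusted p = 0.00254). The Ccr7 ligand Ccl21a went the other way in the colon, at 218 ± 74.4 CPM in the submucosal and 1247 ± 901 CPM in the myenteric plexus (-2.52 ± 0.81; edgeR quasi-likelihood test, Benjamini-Hochberg adjusted p = 0.0294). That call was lost without myenteric replicate 1 or submucosal replicate 1, 4 or 6 (edgeR, Benjamini-Hochberg adjusted p = 0.0502 to 0.087) and with the replicate block (Benjamini-Hochberg adjusted p = 0.0641). By region, in the myenteric plexus it was higher in the colon than in the small intestine (6.10 ± 0.88; edgeR quasi-likelihood test, Benjamini-Hochberg adjusted p = 0.001). Copies of Ccl21a with near-identical sequence exist, so its counts are uncertain. The scavenging receptor Ackr2 was the other pathway gene higher in the myenteric colon (4.32 ± 1.08; edgeR quasi-likelihood test, Benjamini-Hochberg adjusted p = 0.0313), a call lost in 4 of the 11 fits that left out 1 library, colon replicate 1 or small-intestinal replicate 3, 4 or 5 (edgeR, Benjamini-Hochberg adjusted p = 0.0525 to 0.063), and with the groups fitted alone (Benjamini-Hochberg adjusted p = 0.0519). There 0 of 8 CC receptors were called (edgeR; 1 at an unadjusted p under 0.05, and Ccr1 by DESeq2). In the submucosal plexus Ccl21a (3.09 ± 0.77) and Ackr3 (2.32 ± 0.49) were higher in the colon, and Ccl25 (-5.05 ± 0.56) and its receptor Ccr9 (-4.03 ± 0.83) were lower (edgeR quasi-likelihood test, Benjamini-Hochberg adjusted p = 0.0209, 0.0069, 1.60e-05 and 0.00816). The Ccl21a call there was lost without small-intestinal replicate 3 or 5 (edgeR, Benjamini-Hochberg adjusted p = 0.0521 and 0.0526).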

How the data were processed

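RNA of cells labelled as enteric glia was measured by Smart-seq2 in 75 libraries of 16 groups. The authors deposited whole-number counts per gene in 2 tables, and the submitters' processing notes name Trim Galore 0.4.4, STAR 2.5.3, DESeq2 and the build GRCm38 without their order. The counter, the annotation and the use of strand are not given in the sources used here, so antisense or overlapping reads cannot be told apart. Samples were grouped by the labels' region, layer, genotype, treatment and time, and each column was matched to its sample by name.

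Each of the 3 sets of libraries was fitted apart on the deposited counts with edgeR 4.0.16 in R 4.3.3 (TMM scaling, filterByExpr, glmQLFit and glmQLFTest, two-sided, Benjamini-Hochberg adjustment over all genes tested, called under 0.05). Genes under the filter have values and no test. Levels are CPM from TMM-scaled library sizes, and levels per kilobase use the union of GENCODE M21 exons. A gene at 0 in a group was set against 3 counts per library, and a group of 1 to 3 counts gave a pooled ratio with an exact 95% interval. These intervals and floors cover counting error alone, since Smart-seq2 has no molecular identifiers. Scripts were tested on simulated data.

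Alternatives were RLE size factors, no filter on low counts, DESeq2 1.42.0, fits of the compared groups alone, sex as a covariate, the replicate number or mouse as a block, the mouse number (a covariate for mice numbered 10 and below, or only mice numbered 11 and above), and leaving out each library in turn. No 2 of 143 replicate pairs held identical counts. Same-numbered libraries deviated together weakly, with a mean correlation of 0.0928 in untreated libraries, 0.0602 at 2 h and 0.121 for the 2 regions of a mouse at 24 h, and not over 0.1 in every pair. The chemokines always named, the pathway and marker lists, and the rule for further genes (up to 3 called genes per list and direction with the smallest adjusted p, and the 3 genes nearest to a member in fold changes) were chosen with earlier results of these data known.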

Additional observations from a re-analysis of the deposited data

Results flagged for a closer look

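The highest and lowest libraries of 119 gene and group combinations with 4 to 6 libraries were compared with the rest of their group by Dixon's criterion. Its rate of about 1 in 20 by chance holds for normally distributed values, whereas a group with 1 library above 0 is always flagged. The number flagged therefore cannot be set against chance. By this criterion 22 highest libraries stood apart from the other libraries of their group. Wild-type mouse 14 after PBS accounted for 6 of them. Its small-intestinal library held 44.9 CPM of Ccl3, 82.7 CPM of Ccl4, 24.2 CPM of Ccl5 and 143 CPM of Ccl7, and its colon library 105 CPM of Ccl2 and 33.8 CPM of Ccl5.

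Among knockouts, Ccl5 stood out in the colon library of mouse 2 after LPS at 5161 CPM and in that of mouse 7 after PBS at 122 CPM. Ccl4 stood out in the small intestine of mouse 11 after LPS at 122 CPM, and Ccl20 in the colon of mouse 20 after PBS at 0.614 CPM. Wild-type mouse 8 after LPS stood out for Ccl4 in the small intestine (23.4 CPM) and the colon (19.2 CPM) and for Ccl20 in the colon (29.5 CPM).

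At 2 h, Ccl11 stood out in colon replicate 3 after LPS at 206 CPM. Ccl19 stood out after PBS in small-intestinal replicate 4 (0.239 CPM) and colon replicate 3 (0.333 CPM), and Ccl20 in small-intestinal replicate 1 after PBS (1.10 CPM), all from at most 5 counts. In untreated mice, myenteric replicate 4 of the small intestine stood out for Ccl4 (61.4 CPM) and Ccl7 (28.7 CPM) and replicate 3 for Ccl19 (0.453 CPM). Myenteric colon replicate 3 stood out for Ccl11 (123 CPM) and submucosal colon replicate 4 for Ccl19 (8.24 CPM).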

How the results depend on the processing

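At 2 h the count of 4 called chemokines per region held under every alternative and with each library left out (4 to 4 in either region), the replicate block included (4 and 4), as did the 3 calls of wild-type small intestine at 24 h (3 to 3). With the groups fitted alone or only mice numbered 11 and above, knockout small intestine had 1 call (Ccl5) in place of 2, and knockout colon had 0 with the groups alone and 1 (Ccl5) with those mice. Leaving out 1 library gave 1 to 2 calls in knockout small intestine, 0 to 2 in knockout colon and 2 to 2 in wild-type colon. DESeq2 raised wild-type colon to 4, adding Ccl7 and Ccl19. Ccl7 was also called there with the groups alone and Ccl19 with the mouse-number covariate. DESeq2 also raised knockout small intestine to 3 (Ccl19 added) and the plexus comparison of the untreated colon to 5 (Ccl7 added). It raised the untreated myenteric comparison of the regions to 2 (Ccl3 and Ccl11), and the groups alone gave 1 there (Ccl11). For the submucosal against the myenteric plexus, the colon had 2 calls (Ccl3 and Ccl5) with the groups alone in place of 4, since Ccl4 lost its call and Ccl20 fell under the filter, and 3 with the replicate block, where Ccl4 was lost (edgeR, Benjamini-Hochberg adjusted p = 0.0856). With 1 library left out the colon had 3 to 5 calls and the small intestine 3 to 6. The block gave 5 calls in the small intestine and 0 in the comparisons of regions and in every interaction (mouse as the block at 24 h), as each left-out library did (0 to 0). The genotype comparisons also stayed at 0 (0 to 0). No paired analysis was possible for LPS against PBS at 24 h because these groups share no mouse. The 44 chemokine values with an unadjusted p under 0.05 were recomputed one by one, and none of them changed direction. Apart from the fits without single libraries, 266 recomputed values stayed on their side of the threshold, 9 lost the call and 10 gained it. With each library left out, 438 stayed, 20 lost the call and 2 gained it. The 46 calls of other pathway genes were recomputed in the same way, an addition chosen after seeing the data: over the same alternatives 260 values stayed called and 12 did not, and with each library left out 451 did and 49 did not. Ccl19 and Ccl20 held 0 to 74 counts per library at 2 h and in untreated mice, and small differences were not detectable at this depth.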
